A study of Mus musculus with 14 samples.

Results

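The Hox genes were examined in FDCPmix cells, an IL-3-dependent multipotent line of mouse bone marrow origin. Members were every array probe whose transcript accession maps to a symbol made of Hoxa, Hoxb, Hoxc or Hoxd and a number. The rule found 46 probes of 37 genes, among 41174 probes and 16535 named genes on the array. Of the 39 Hox genes in the RefSeq table, Hoxc6 and Hoxc11 were matched by no probe. The measured members were 11 genes of the HoxA cluster, 10 of HoxB, 7 of HoxC and 9 of HoxD.

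RNA of 14 samples was labelled with Cy3 and hybridised 1 sample to an array. All came from maintenance culture with horse serum and WEHI IL-3 conditioned medium, and none was treated otherwise. The groups were cells sorted by surface antigens: Kit+Gr1-Sca1hi (3 samples), Kit+Gr1-Sca1lo (3), Kit-Gr1- (3) and Gr1+ (3), plus unfractionated cells (2). The series describes biological replicates of 1 cell line, with no strain, age or clone given, so p-values measure the spread between samples of that line. Kit is the receptor of stem cell factor, Sca1 a stem cell antigen encoded by Ly6a, and Gr1 an antigen of granulocytes.

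Hox proteins are homeodomain transcription factors that give embryonic segments their identity along the body axis. Their genes lie in 4 clusters, and the number in a gene's name gives its paralogue group, which runs from the anterior-acting end of a cluster to the posterior-acting end. In blood formation several HoxA and HoxB genes are known to be active in stem and progenitor cells and to be shut down as cells mature, with Hoxa9 and its partner Meis1 best known for driving self-renewal and leukaemia. Trithorax (MLL) complexes keep Hox genes active and Polycomb complexes keep them silent.

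Expression of each probe is given as a log2 level, the log2 processed signal minus the 75th percentile of the array, so that 0 is a bright probe. Levels are compared between samples for 1 probe and not between genes, because probes differ in brightness. A gene was taken as detected on an array when all spots of at least 1 of its probes carried the scanner software's flag for signal well above background. The flag is lenient: 86.2% of all named genes were detected on every sorted array. For 4 arrays the log2 signals were compressed, with an interquartile range of 1.78 to 3.42 against 4.17 to 4.92 on the other 10, and 90.7% to 99.5% of their spots were well above background against 79.5% to 89.4%. These were replicate 3 of Sca1hi, of Sca1lo and of Gr1+, and unfractionated replicate 1. Sca1hi replicate 3 gave the highest of the 12 sorted values for 30 of the 37 Hox genes, so results are given with and without these arrays.

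The sort was visible in the arrays. Kit was lower in Kit-Gr1- than in Kit+Gr1- cells by a log2 difference of -2.20 ± 0.25 (SE; adjusted p = 0.0035, limma), and in Gr1+ cells Ly6a was higher by 4.14 ± 0.43 and Ly6c1, a member of the Ly6 family, by 6.73 ± 1.00. Ly6a in Sca1hi minus Sca1lo cells passed the test with the slide as a block and without the compressed arrays (2.39, adjusted p = 0.035), not in the fit of all arrays. Of the red cell markers, 5 of 8 rose in Kit-Gr1- cells, and of the neutrophil markers 5 of 6 and of the eosinophil markers 3 of 3 rose in Gr1+ cells. Among all genes, 0.0678% passed the test in Kit-Gr1- and 2.02% in Gr1+ against Kit+Gr1-, in either direction. No mast cell, B cell, T cell, stroma or endothelial marker passed the test in any of the 4 comparisons of all arrays. With the slide as a block and without the compressed arrays, Mcpt8, a basophil protease, passed in Kit-Gr1- (2.11) and in Gr1+ (3.68) against Kit+Gr1-, and Cpa3, a mast cell protease, passed in Gr1+ (2.75) and was lower in Kit-Gr1- than in Gr1+ (-1.82). In that setting 1.17% of all genes passed in Kit-Gr1- and 7.56% in Gr1+ against Kit+Gr1-, and 6.93% in Kit-Gr1- against Gr1+. In bulk RNA, fewer cells of a type and less RNA per cell cannot be told apart.

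Upstream sequences of 3 members are shown because the genes differ in detection. Hoxa7 and Hoxd12 were detected on every sorted array, while Hoxd13, the neighbour of Hoxd12 at the posterior end of HoxD, was detected on 2 of the 9 sorted arrays that were not compressed. Each is the 250 bases before the annotated start in RefSeq on GRCm38.p6, written 5′ to 3′ on the gene's strand, with CpG dinucleotides in capitals.
Hoxa7 (chr6:52218574-52218823, minus strand): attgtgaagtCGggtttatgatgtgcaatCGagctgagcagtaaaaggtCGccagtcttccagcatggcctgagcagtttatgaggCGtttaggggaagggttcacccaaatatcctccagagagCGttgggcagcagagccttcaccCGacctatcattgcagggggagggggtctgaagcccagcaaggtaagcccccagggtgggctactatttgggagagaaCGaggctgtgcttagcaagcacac
Hoxd12 (chr2:74674763-74675012, plus strand): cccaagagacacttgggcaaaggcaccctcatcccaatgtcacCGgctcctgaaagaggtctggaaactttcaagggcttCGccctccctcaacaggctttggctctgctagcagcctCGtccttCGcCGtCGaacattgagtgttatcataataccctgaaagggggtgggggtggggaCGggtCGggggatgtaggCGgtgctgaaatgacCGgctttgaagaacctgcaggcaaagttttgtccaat
Hoxd13 (chr2:74667975-74668224, plus strand): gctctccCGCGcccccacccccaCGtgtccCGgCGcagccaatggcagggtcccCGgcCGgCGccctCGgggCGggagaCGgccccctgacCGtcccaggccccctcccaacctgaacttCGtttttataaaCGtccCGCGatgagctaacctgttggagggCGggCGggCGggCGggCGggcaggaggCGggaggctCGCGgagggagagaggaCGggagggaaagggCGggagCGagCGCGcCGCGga

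The Hoxa7 window holds 7 CpG dinucleotides, that of Hoxd12 10 and that of Hoxd13 31, so the weakly detected gene has the most of these 3. The promoter table held 24 windows of 22 Hox genes. They had a median of 12.5 CpG dinucleotides and 58.6% G and C, against 6 and 52.4% over all 32851 windows of the table. Windows of genes detected on all 9 uncompressed sorted arrays had a median of 13 CpG (13 windows) and those of the other genes 7 (11 windows), a description with no test. The letters TTTATG, a form of the site that Cdx proteins bind, stood in 5 of 24 Hox windows on either strand (20.8%, all windows 10.8%), among them that of Hoxa7. The letters TGATTNAT, a form of the joint site of Hox proteins and their TALE cofactors, stood in 2 of 24 (8.33%, all windows 2.82%), those of Hoxa2 and Hoxd11. The letters TATAAA stood in 4 of 24 (16.7%, all windows 12.4%), CCAAT in 14 (58.3%, all windows 33.8%) and ATTAAT in 1 (4.17%, all windows 4.39%), again on either strand. A match describes the letters and is not evidence of binding.

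A set of 21 of the 37 Hox genes (56.8%) was detected on every one of the 12 sorted arrays, against 86.2% of all named genes. From HoxA these were Hoxa3, Hoxa4, Hoxa6, Hoxa7, Hoxa10 and Hoxa13. From HoxB they were Hoxb4, Hoxb5, Hoxb6, Hoxb7, Hoxb8, Hoxb9 and Hoxb13, from HoxC Hoxc4, Hoxc5, Hoxc9 and Hoxc13, and from HoxD Hoxd3, Hoxd9, Hoxd10 and Hoxd12. The same 21 genes were detected on all 9 sorted arrays left without the compressed ones, where the share of all named genes was 87%. HoxB had the most continuous block, from Hoxb4 to Hoxb9 without a gap.

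The other genes dropped out on some or all of the uncompressed arrays. Hoxc8, a gene of thoracic identity, was well above background on none of the 9, as were 2.91% of all named genes. Hoxd13, a gene of digit formation, was detected on 2 of 9. Hoxa2, Hoxa11 and Hoxd4 were detected on 4 of 9, Hoxb3, Hoxc12 and Hoxd1 on 5, Hoxd11 on 6, and Hoxa5, Hoxb1, Hoxb2 and Hoxd8 on 7. Hoxa9 and Hoxc10 were detected on 8 of 9, and the array that lacked them was Sca1hi replicate 2. Hoxb3, Hoxc12, Hoxd1 and Hoxd11 were detected on all uncompressed arrays of Gr1+ alone, but no uncompressed Gr1+ array lay on slide 3, where detection was lowest. The same holds for Sca1lo. On slide 2, with 1 array per fraction, Sca1lo replicate 2 lacked each of these genes and Kit-Gr1- replicate 2 all but Hoxc12. This was not tested. No gene was detected on every uncompressed array of 1 fraction and on none of the others.

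By paralogue group, none of the 5 measured genes of groups 1 and 2 was detected on all 9 arrays. Of groups 3 to 10, 17 of 24 genes were, including both measured genes of group 6 and both of group 7. Of groups 11 to 13, 4 of 8 were, namely Hoxa13, Hoxb13, Hoxc13 and Hoxd12, while neither gene of group 11 was. These blocks were drawn after the values were seen and carry no test.

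**Figure D1:**
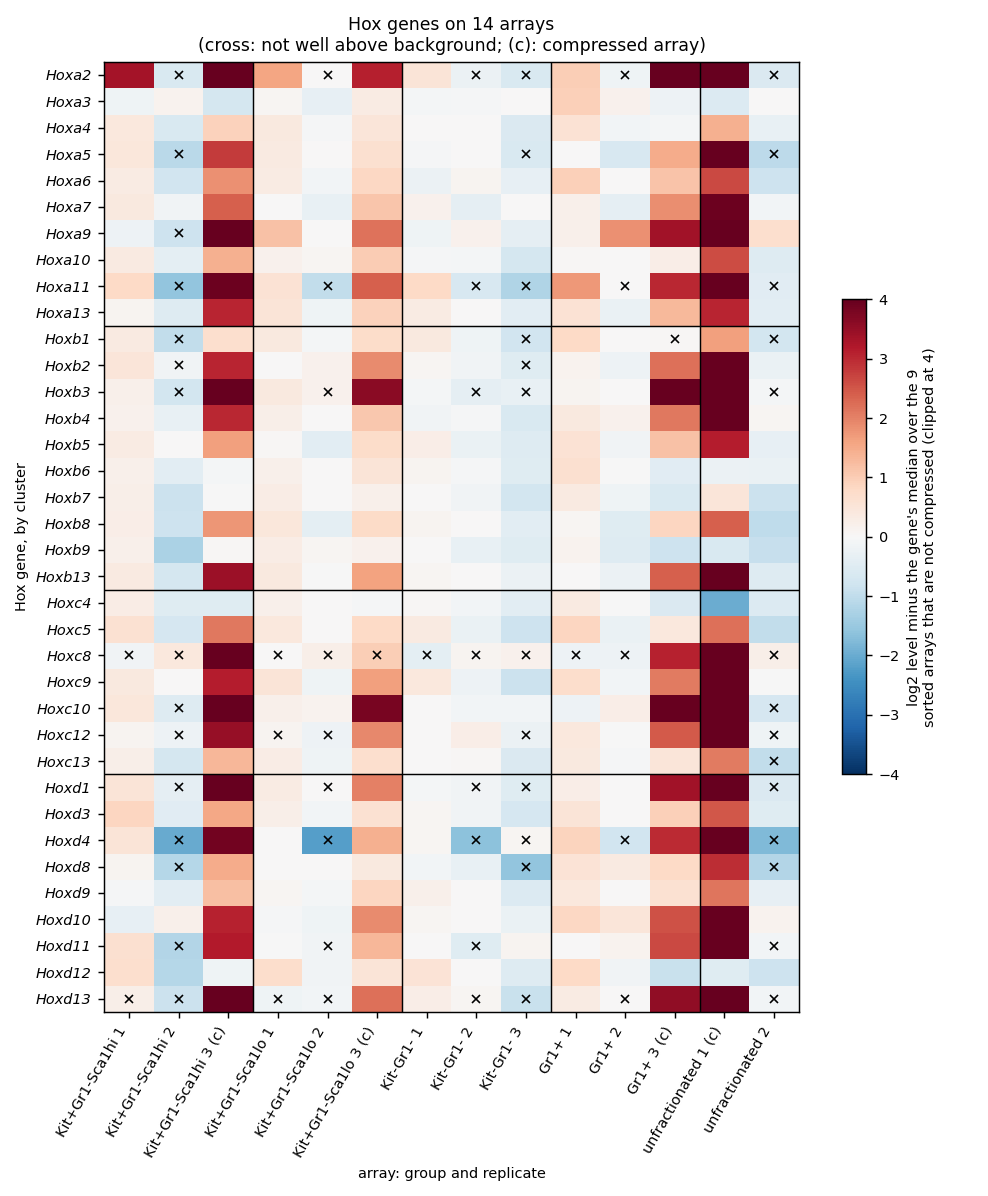
Log2 level of the probe that stands for each of 36 Hox genes on the 14 arrays, as a difference from that gene's median over the 9 uncompressed sorted arrays (colour, clipped at 4), with a cross where that probe was not well above background and (c) at compressed arrays. Crosses gather in the rows of Hoxc8 and Hoxd13 and in the columns of Sca1hi replicate 2, Kit-Gr1- replicate 3 and unfractionated replicate 2. The compressed columns are red for most genes but not for all, as for Hoxc4, whose values there lie below its median.

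Probes of the same gene disagreed for several members. For Hoxa13, 1 probe was detected on all 9 uncompressed sorted arrays and the other on 0. For Hoxb8, a gene whose forced expression immortalises myeloid progenitors, and for Hoxd3 the same split of 9 against 0 was seen. The pair for Hoxb3 stood at 5 and 0, that for Hoxc10 at 8 and 1, and that for Hoxd9 at 9 and 7. Both probes of Hoxa3, of Hoxa4 and of Hoxb9 were detected on all 9. Detection of Hoxa13, Hoxb8 and Hoxd3 therefore rests on 1 probe of 2.

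Counted within each fraction, 21 Hox genes were detected on every array of Sca1hi, 27 of Sca1lo, 23 of Kit-Gr1- and 30 of Gr1+. The shares of the 37 were 56.8%, 73.0%, 62.2% and 81.1%, beside 87.5%, 91.5%, 89.5% and 93.1% of all named genes. Both rows of shares are in the same order, and no test was made of the counts. Without the compressed arrays the counts were 21, 27, 23 and 31. The count of Sca1hi rested on replicate 2, without which it was 34.

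Detection counts ran with the slide. On slide 1, which held replicate 1 of each sorted fraction, 33 to 36 Hox genes were detected per array. On slide 2 the uncompressed sorted arrays gave 27 (Sca1lo replicate 2), 28 (Kit-Gr1- replicate 2) and 31 (Gr1+ replicate 2). On slide 3 they gave 21 (Sca1hi replicate 2) and 24 (Kit-Gr1- replicate 3). Within the Kit-Gr1- group alone, the counts were 36, 28 and 24 on slides 1, 2 and 3. The share of all spots well above background fell in the same order, from 87.2% to 89.4% on slide 1, through 84.0% to 86.8% on slide 2, to 79.5% to 81.3% on slide 3. The part of the slide in the differences between fractions was not tested for the counts.

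**Figure D2:**
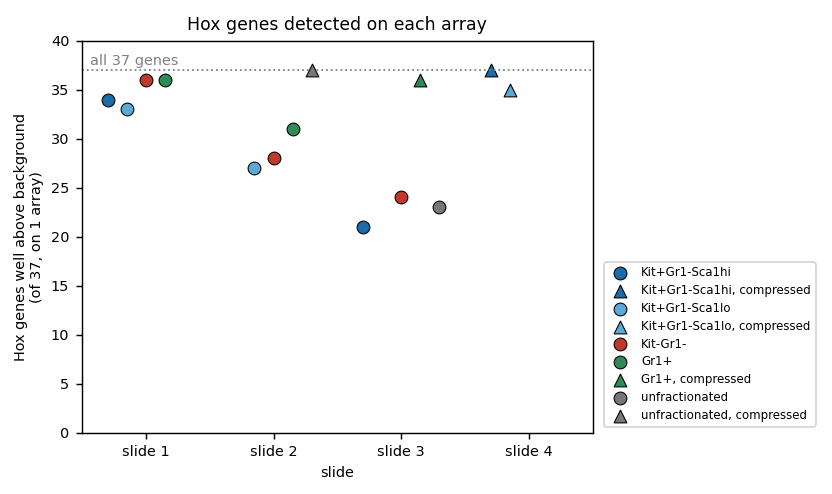
Number of the 37 Hox genes well above background on each array (vertical axis), by slide (horizontal axis) and group (colour), with triangles for the 4 compressed arrays. The uncompressed sorted arrays stand at 33 to 36 on slide 1, 27 to 31 on slide 2 and 21 to 24 on slide 3, and the compressed ones at 35 to 37.

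No Hox gene was called different in any of the 4 comparisons of sorted fractions, with a call being an adjusted p under 0.05 over all 32462 genes tested and a change of at least 2-fold (limma, all 14 arrays, Benjamini-Hochberg). None of the 37 had an unadjusted p under 0.05 in any comparison or in the F test over the 4 sorted fractions, beside 2.05%, 8.52%, 7.21% and 0.182% of all genes in the comparisons below and 5.69% in the F test. Called genes were 0.0678% of all genes in Kit-Gr1- against Kit+Gr1-, 2.02% in Gr1+ against Kit+Gr1-, 1.61% in Kit-Gr1- against Gr1+, 0% in Sca1hi against Sca1lo and 1.27% in the F test. Kit+Gr1- stands here for the mean of Sca1hi and Sca1lo. At these shares of called genes, 0 of 37 called does not set the Hox genes apart. The comparisons share samples and are not independent of each other. Without the 4 compressed arrays 0 of 34 Hox genes were called in each, beside 0.489%, 7.01%, 6.33% and 0% of all genes. An unadjusted p under 0.05 (limma) was then found for 0, 2, 1 and 0 of the 34. Over all genes the shares were 7.48%, 24.7%, 23.2% and 1.45%. The Hox counts lay below these shares, and no test was made of them.

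The fit of all arrays was imprecise for these probes. The median half-width of a 95% interval over the Hox genes was 1.84 on the log2 scale for the comparisons with Kit+Gr1-, so 5 and 4 of 37 intervals (13.5% and 10.8%) lay within 2-fold of no change, against 29.6% and 26.5% over all genes. For the other comparisons it was 2.13. There 3 of 37 (8.11%, all genes 18.8%) lay within 2-fold in Kit-Gr1- against Gr1+ and 0 of 37 (all genes 23.6%) in Sca1hi against Sca1lo. With the slide as a block and the compressed arrays left out, a setting chosen after the data were seen, 10 arrays and 34 Hox genes remained (Hoxc8 and Hoxd13 were among those that failed the filter) with 3 residual degrees of freedom. In that fit 0, 1, 0 and 0 of 34 Hox genes were called, beside 1.17%, 7.56%, 6.93% and 0.0103% of all genes. An unadjusted p under 0.05 (limma) was found for 0, 3, 5 and 0 of the 34, beside 16.1%, 34.0%, 31.3% and 4.11% of all genes. There 30 of 34 intervals lay within 2-fold in Kit-Gr1- against Kit+Gr1-, 25 in Gr1+ against Kit+Gr1-, 24 in Kit-Gr1- against Gr1+ and 25 in Sca1hi against Sca1lo. These are 88.2%, 73.5%, 70.6% and 73.5% of the Hox genes, beside 89.7%, 74.98%, 74.4% and 82.1% of all genes, so the Hox shares were near or below the background. The intervals of Hoxa2, Hoxa9, Hoxd4 and Hoxd11 reached past 2-fold in all 4 comparisons. Others whose interval did so in at least 1 were Hoxa3, Hoxa5, Hoxa6, Hoxa11, Hoxb2, Hoxb3, Hoxb9, Hoxd8 and Hoxd10. The estimates themselves ran from -0.86 to 0.71 in Kit-Gr1- against Kit+Gr1- and from -0.96 to 0.40 in Kit-Gr1- against Gr1+, all under 2-fold. They reached 1.21 in Gr1+ against Kit+Gr1- and 1.14 in Sca1hi against Sca1lo.

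**Figure D3:**
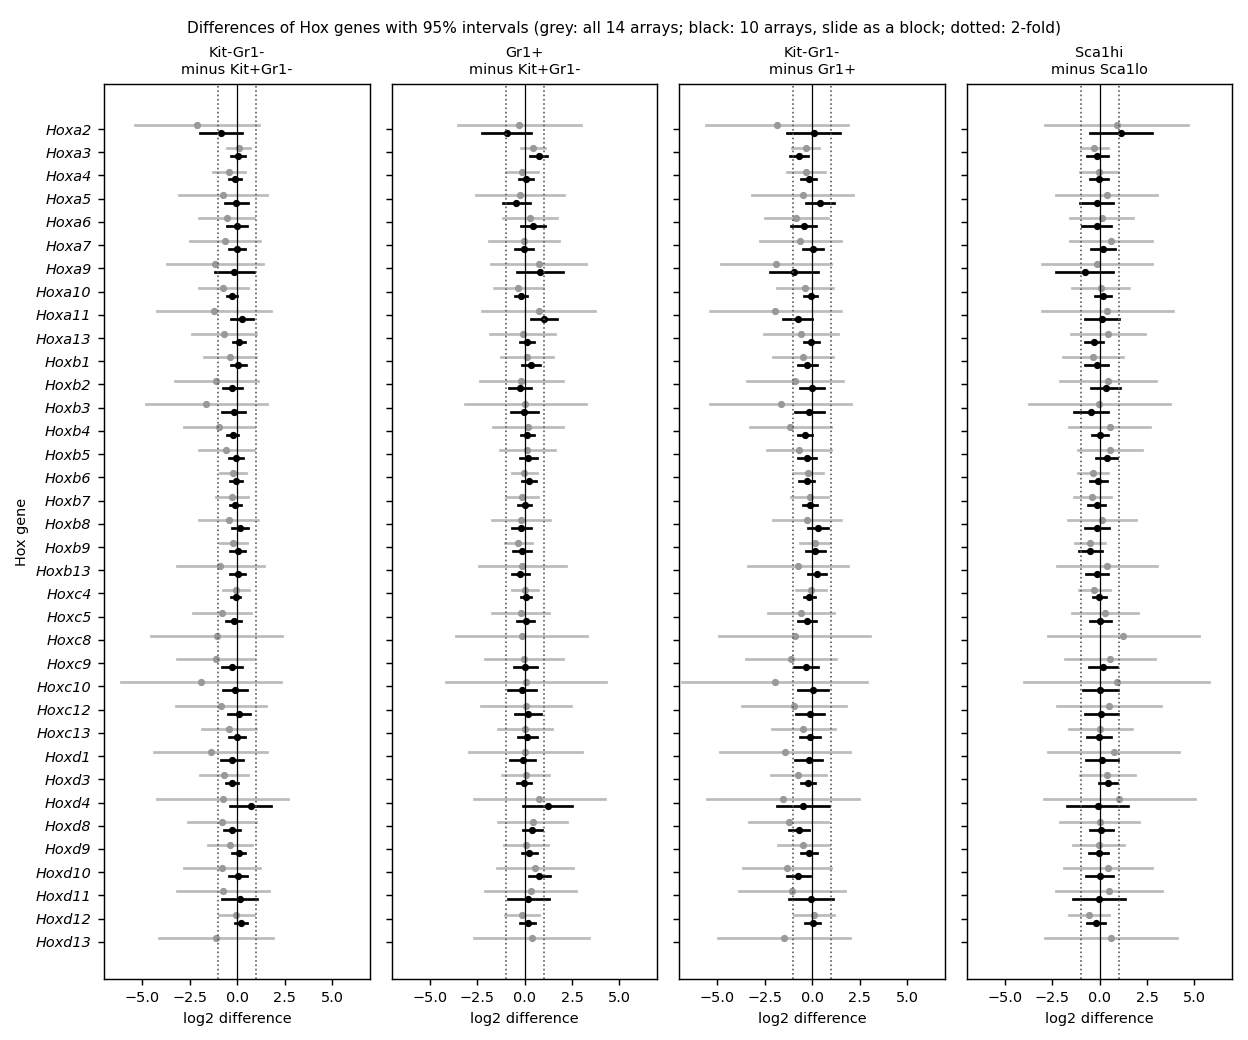
Log2 difference (horizontal axis) of 36 Hox genes in the 4 comparisons, with its 95% interval from all 14 arrays (grey) and from the 10 uncompressed arrays with the slide as a block (black); dotted lines mark 2-fold. Most black intervals lie between the dotted lines, as for 30 of 34 genes in Kit-Gr1- minus Kit+Gr1-, and the grey ones are wider.

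Between Kit-Gr1- and Kit+Gr1- cells, the median difference of the 37 Hox genes was -0.75, against -0.25 over all genes, and 36 of 37 were negative. With the slide as a block and all arrays kept, it was -0.07 against -0.06 over all genes, with 25 of 37 negative. Without the compressed arrays and with no block it was -0.14 against -0.09, with 27 of 34 negative. With both changes it was -0.05 against -0.04, with 18 of 34 negative. The median over all genes in this comparison also moved with the scaling, from -0.25 to 0.07 with array medians and to 0.00 with quantile normalization, where the Hox medians were -0.43 and -0.23. The 4 members with the smallest p, among those detected on every array of a compared group, were Hoxa10, a regulator of myeloid and megakaryocyte progenitors (-0.72 ± 0.59, SE), Hoxc5 (-0.80 ± 0.70), Hoxc9, a gene of thoracic motor neurons (-1.14 ± 0.95), and Hoxd3 (-0.69 ± 0.58), all with adjusted p = 0.91. In the blocked fit without compressed arrays they were -0.27, -0.18, -0.27 and -0.25.

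Hoxa10 stood at -2.94, -3.69 and -1.89 in Sca1hi replicates 1 to 3, at -3.12, -3.23 and -2.30 in Sca1lo, at -3.36, -3.38 and -4.00 in Kit-Gr1-, and at -3.25, -3.31 and -3.03 in Gr1+. The highest values were those of the compressed arrays of both Kit+Gr1- fractions, and the Kit-Gr1- and Kit+Gr1- ranges overlapped. Hoxc9 stood at -4.40, -4.80 and -1.65 in Sca1hi, at -4.30, -4.98 and -3.17 in Sca1lo, at -4.39, -5.00 and -5.67 in Kit-Gr1-, and at -4.10, -4.91 and -2.74 in Gr1+. Again the compressed array was the highest of each fraction that had one. Within slide 1 the Kit-Gr1- value of Hoxc9 differed from the mean of Sca1hi and Sca1lo by -0.04, within slide 2 from Sca1lo by -0.02 and within slide 3 from Sca1hi by -0.87.

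Hoxd3, which with Hoxa3 belongs to paralogue group 3, stood at -1.74, -3.03 and -1.04 in Sca1hi, at -2.34, -2.68 and -1.98 in Sca1lo, at -2.49, -2.72 and -3.25 in Kit-Gr1-, and at -2.07, -2.58 and -1.62 in Gr1+. In Kit-Gr1-, Sca1lo and Gr1+ the values of the arrays on slide 1 were above those of slide 2, and the fractions overlapped. For Hoxd3 too the compressed array was the highest of each fraction that had one. Within slides the Kit-Gr1- minus Kit+Gr1- difference of Hoxd3 was -0.45, -0.04 and -0.22.

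Between Gr1+ and Kit+Gr1- cells, the median Hox difference was 0.03 against -0.05 over all genes, and 21 of 37 were positive. With the slide as a block and all arrays kept, the median was 0.63 against 0.17 over all genes and 36 of 37 were positive. With the compressed arrays left out as well it was 0.11 against -0.02, with 22 of 34 positive. The shares of all genes that were positive were 43.4%, 64.2% and 47.4%, in the same order. By the same rule the named members were Hoxa3, a gene of thymus and parathyroid formation (0.42 ± 0.29, SE), Hoxb9 (-0.33 ± 0.32), Hoxa9 (0.73 ± 1.17) and Hoxd10 (0.52 ± 0.93), all with adjusted p = 1.00. The values of Hoxa9 and Hoxd10 depended on which compressed arrays were kept. Without Gr1+ replicate 3 alone, a compressed array, they were -0.05 and -0.11, with the compressed Sca1hi and Sca1lo arrays still compared. Without all 4 compressed arrays they were 0.98 and 0.75.

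Hoxa3 stood at -1.21, -0.90 and -1.74 in Sca1hi, at -0.95, -1.34 and -0.72 in Sca1lo, at -1.10, -1.08 and -1.03 in Kit-Gr1-, and at -0.07, -0.85 and -1.24 in Gr1+. Gr1+ replicate 1 was the highest of the 12 arrays, and Gr1+ replicate 3 was among the lowest. In the blocked fit without compressed arrays Hoxa3 was higher in Gr1+ than in Kit+Gr1- cells by 0.74 ± 0.19 (SE; adjusted p = 0.023, limma), a change under 2-fold, and lower in Kit-Gr1- than in Gr1+ by -0.69 (adjusted p = 0.046). That value rests on 1 probe of 2. The other Hoxa3 probe, also well above background on every array, stood in Gr1+ at -4.15 on slide 1, below Sca1hi at -3.79 and Sca1lo at -3.92. On slide 2 it stood at -4.34 in Gr1+, below Sca1lo at -3.90, so the probes differed in direction. For the probe that stands for the gene, the within-slide differences of Gr1+ from Kit+Gr1- cells were 1.00 on slide 1, 0.50 on slide 2 and, with the compressed Gr1+ array, -0.34 on slide 3.

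Hoxd10, a gene of lumbar motor neurons, stood at -4.88, -4.37 and -1.50 in Sca1hi, at -4.62, -4.75 and -2.69 in Sca1lo, at -4.47, -4.56 and -4.82 in Kit-Gr1-, and at -3.75, -4.07 and -2.01 in Gr1+. Among uncompressed arrays both Gr1+ values were above all others. The blocked difference from Kit+Gr1- cells was 0.78 (interval 0.21 to 1.34, adjusted p = 0.055), which missed the threshold. Hoxa11, a gene of forearm and kidney formation, was called only in that fit (1.02 ± 0.30, SE, adjusted p = 0.044, limma), where 7.56% of all genes were called in the same comparison. The Gr1+ values of Hoxa11 were -4.25, -5.99 and -2.98, and the second of these was not well above background. Nor were Sca1hi replicate 2 (-7.56) and Sca1lo replicate 2 (-6.98), so 2 of the 4 Kit+Gr1- arrays and 1 of the 2 Gr1+ arrays in that fit were at background and the size of the difference is uncertain.

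Hoxa9, the member of the clusters most tied to myeloid leukaemia, stood at -5.60, -6.22 and -1.38 in Sca1hi, at -4.23, -5.39 and -3.21 in Sca1lo, at -5.56, -5.23 and -5.75 in Kit-Gr1-, and at -5.20, -3.56 and -2.04 in Gr1+. The value of -6.22 was not well above background. Its 2 uncompressed Gr1+ arrays differed by more than 1, and the one on slide 1 lay within the range of the Kit+Gr1- arrays. Within slides the Gr1+ minus Kit+Gr1- difference was -0.29 on slide 1, 1.83 on slide 2 and 4.17 on slide 3 with the compressed Gr1+ array.

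**Figure D4:**
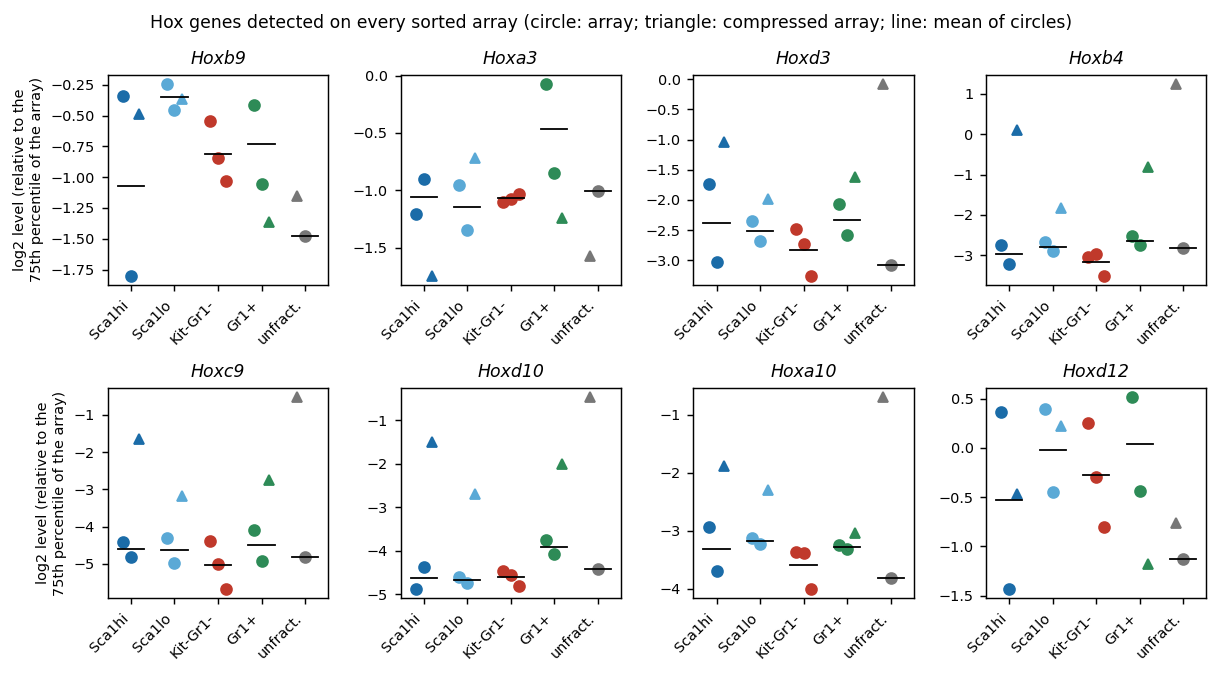
Log2 level of 8 Hox genes detected on every sorted array, those with the smallest F-test p, on each array by group (colour), with triangles for compressed arrays and a line at the mean of the others. The groups overlap for most genes, and for Hoxd3, Hoxb4, Hoxc9, Hoxd10 and Hoxa10 the triangles are the highest points of the groups that have one.

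Between Kit-Gr1- and Gr1+ cells, the values of 7 of the 37 Hox genes (18.9%) did not overlap, namely Hoxa9, Hoxa10, Hoxb3, Hoxb4, Hoxd1, Hoxd8 and Hoxd10, all lower in Kit-Gr1-. Over all probes 27.5% did not overlap between these fractions, 13.6% in that direction. The 4 smallest p-values were those of Hoxa9 (-1.91 ± 1.35, SE), Hoxd8 (-1.23 ± 0.96), Hoxd10 (-1.34 ± 1.07) and Hoxb4, a gene whose forced expression expands blood stem cells (-1.15 ± 0.98), all with adjusted p = 0.96. In the blocked fit without compressed arrays the differences were -0.96, -0.68, -0.73 and -0.38, with adjusted p of 0.30, 0.075, 0.092 and 0.14.

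Hoxb4 stood at -2.73, -3.21 and 0.11 in Sca1hi, at -2.68, -2.91 and -1.82 in Sca1lo, at -3.05, -2.96 and -3.50 in Kit-Gr1-, and at -2.52, -2.75 and -0.81 in Gr1+. Without the compressed arrays the 9 values lay between -3.50 and -2.52. The Kit-Gr1- and Gr1+ values did not overlap, and the difference was -0.53 on slide 1, -0.21 on slide 2 and, with the compressed Gr1+ array, -2.70 on slide 3.

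Between Sca1hi and Sca1lo cells, the fractions set apart by Sca1 alone, the median Hox difference was 0.37 against -0.01 over all genes, with 26 of 37 positive. The direction turned with the setting: it was 0.70 with the slide as a block (30 of 37 positive), -0.21 without the compressed arrays (25 of 34 negative) and -0.03 with both. Starting with the main fit, 48.8%, 55.9%, 36.3% and 42.6% of all genes were positive. The smallest p-values were those of Hoxb9 (-0.52 ± 0.37, SE), Hoxd12, a limb gene (-0.57 ± 0.49), Hoxb6 (-0.35 ± 0.36) and Hoxb7 (-0.38 ± 0.44), all with adjusted p = 1.00. Only slide 1 held both fractions uncompressed, and its differences for these genes were -0.10, -0.03, -0.02 and -0.05. Hoxb9 stood at -0.34, -1.80 and -0.48 in Sca1hi, at -0.24, -0.45 and -0.37 in Sca1lo, at -0.55, -0.85 and -1.03 in Kit-Gr1-, and at -0.41, -1.06 and -1.36 in Gr1+. The lowest was Sca1hi replicate 2 on slide 3. Hoxd12 stood at 0.37, -1.43 and -0.46 in Sca1hi, at 0.40, -0.45 and 0.23 in Sca1lo, at 0.25, -0.29 and -0.80 in Kit-Gr1-, and at 0.51, -0.44 and -1.18 in Gr1+. On slide 1 the Hoxd12 values of all 4 fractions lay within 0.26 of each other, the narrowest range of the 37 genes there.

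Slide 1, the only slide with all 4 sorted fractions uncompressed, gave the closest view of the fractions side by side, with 1 array each and no test. The range over the 4 fractions had a median of 0.51 over the 37 genes, and for 6 genes it passed 1: Hoxa2, Hoxa3, Hoxa6, Hoxa9, Hoxa11 and Hoxd10. All but Hoxd10 belong to HoxA. For comparison, the range of the 3 Kit-Gr1- arrays over slides 1 to 3 had a median of 0.60 and passed 1 for 10 genes. Of those 3 arrays, the one on slide 1 was highest for 27 of 37 genes and the one on slide 3 lowest for 31. Their spread over slides within 1 fraction therefore had a larger median than the spread over fractions within slide 1.

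The 2 unfractionated arrays stood far apart. Replicate 1, which was compressed, was higher than replicate 2 for 35 of 37 Hox genes, by a median of 4.04. On replicate 2, 23 Hox genes were detected, close to the 24 of Kit-Gr1- replicate 3 on the same slide.

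Partners and regulators of the Hox genes were taken from 8 lists. Of the TALE cofactors, which bind DNA together with Hox proteins, 0 of 9 passed the test in any comparison, with medians of -0.45, 0.13, -0.60 and 0.10 in the order above. Meis1 was nearest: it stood at -3.89, -4.02 and -2.13 in Gr1+, between -1.67 and -0.89 in the 6 Kit+Gr1- arrays and between -1.57 and -0.65 in Kit-Gr1-. All 3 Gr1+ values were below all 9 others. The difference of Gr1+ from Kit+Gr1- was -1.92 ± 0.53 (SE; adjusted p = 0.105, limma), and without the compressed arrays it was -2.46 ± 0.26 (adjusted p = 0.00056), which passed. Kit-Gr1- minus Gr1+ was 2.25 ± 0.61 (SE; adjusted p = 0.12, limma), so Meis1 was again the lower in Gr1+, and 2.86 without those arrays (adjusted p = 0.00043), which passed. Without those arrays 7.01% of all genes were called in Gr1+ against Kit+Gr1- and 6.33% in Kit-Gr1- against Gr1+.

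Of Cdx1, Cdx2 and Cdx4, activators of Hox genes in the embryo, 0 of 3 passed the test. Cdx1 carried the flag on all Sca1lo and all Gr1+ arrays, on 2 of 3 of Sca1hi and on 1 of 3 of Kit-Gr1-, while Cdx2 carried it on no uncompressed sorted array. Of 14 trithorax and MLL genes measured, 0 passed in any comparison, with medians between -0.21 and 0.17, and all 14 were detected on every array of each group. With the slide as a block and without compressed arrays, Psip1, which tethers MLL complexes to chromatin, was lower in Gr1+ (-1.11, adjusted p = 0.00028, limma), where the fit of all arrays gave -0.90 (adjusted p = 0.35). Aff4, of the super elongation complex, gave 0.94 there (adjusted p = 0.29). Of 23 Polycomb genes 0 passed in the fit of all arrays, where Ezh1 gave 0.95 (adjusted p = 0.088) and Phf1 1.29 (adjusted p = 0.26) in Gr1+ against Kit+Gr1-. In the blocked fit 5 passed in Gr1+ against Kit+Gr1-, where 7.56% of all genes were called: Ezh1 (1.11) and Phf1 (1.25) were higher, and Ezh2 (-1.03), Rbbp7 (-1.14) and Cbx2 (-1.12) were lower. In Kit-Gr1- against Kit+Gr1-, Cbx2 was lower in that fit too (-1.10), where 1.17% of all genes were called. Ezh1 and Ezh2 are the alternative H3K27 methyltransferases of Polycomb complex PRC2. Of the 4 H3K27 demethylase and Asxl genes and the 14 genes beside or within the clusters, 0 passed in any comparison of the fit of all arrays, the nearest being the demethylase Kdm6b (0.82, adjusted p = 0.40) and Snx11, beside HoxB (0.45, adjusted p = 0.37), both in Gr1+ against Kit+Gr1-.

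Among the other homeobox genes of blood cells, Hlx rose in Gr1+ cells. Hlx, a regulator of myeloid and lymphoid differentiation, stood at 0.54, 0.55 and -0.01 in Gr1+ and between -2.06 and -1.26 on the 9 other sorted arrays, a difference of 1.97 ± 0.32 from Kit+Gr1- (SE; adjusted p = 0.0058, limma) and of -2.14 for Kit-Gr1- minus Gr1+ (adjusted p = 0.0087). The call against Kit+Gr1- ended under array medians (adjusted p = 0.22), quantile normalization (0.089) and the unscaled series matrix (0.30), and without Gr1+ replicate 2 (0.072). Against Kit-Gr1- it ended under the same scalings (0.55, 0.30 and 0.32) and without Kit-Gr1- replicate 3 (0.061) or Gr1+ replicate 2 (0.073). Without the compressed arrays and with the slide as a block the difference from Kit+Gr1- was 2.01 and passed the test.

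**Figure D5:**
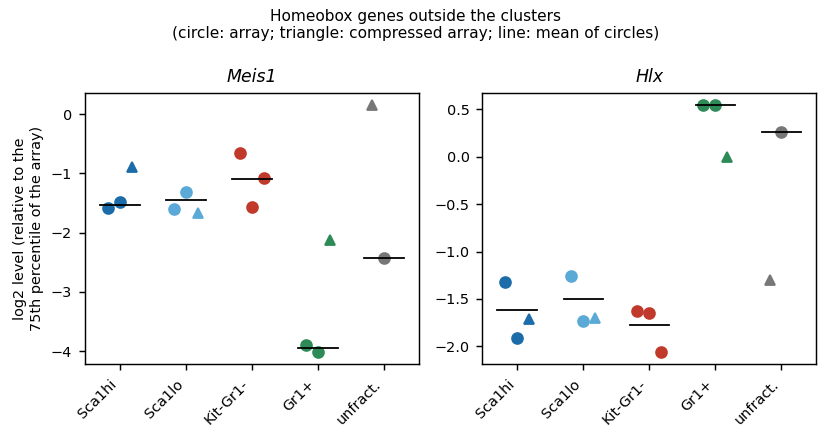
Log2 level of Meis1 and Hlx on each array by group (colour), with triangles for compressed arrays and a line at the mean of the others. The Gr1+ arrays lie below the other sorted arrays for Meis1 and above them for Hlx.

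Of 19 genes reported as targets of Hoxa9 and Meis1, 1 rose and 1 fell in Gr1+ against Kit+Gr1-, where 2.02% of all genes were called. Gfi1, a repressor needed for neutrophil formation, rose by 4.12 ± 0.92 (SE; adjusted p = 0.035) and Sox4, a progenitor factor, fell by 1.37 ± 0.26 (adjusted p = 0.013, limma). Both calls ended without Gr1+ replicate 2 (adjusted p = 0.24 and 0.15), and that of Gfi1 ended also without any 1 of Sca1hi replicates 1 and 2, Sca1lo replicates 1 and 3 and Gr1+ replicates 1 and 3 (0.055 to 0.14). The call of Sox4 ended also under array medians (adjusted p = 0.57) and the unscaled series matrix (0.28), and that of Gfi1 under array medians (0.17), quantile normalization (0.11) and no trend (0.089). Gfi1 was also lower in Kit-Gr1- than in Gr1+ cells (-5.59, adjusted p = 0.017), a call that ended without Kit-Gr1- replicate 1 or Gr1+ replicate 2 or 3 (0.067 to 0.11) and under array medians (0.11), quantile normalization (0.090) and no trend (0.051). In Kit-Gr1- against Kit+Gr1- 0 of 19 passed, Cd34 being nearest (-1.72 ± 0.36, adjusted p = 0.25), and in the blocked fit without compressed arrays 4 were lower, where 1.17% of all genes were called: Cd34 (-1.89), Sox4 (-1.16), Erg (-1.26) and Gfi1 (-1.64). The red cell, neutrophil, eosinophil, mast cell and basophil markers that moved with these fractions are given above, and their part in these differences was not tested.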

How the data were processed

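Each of the 14 arrays was read with Agilent Feature Extraction 10.1.1.1, per the file headers, which name mouse build mm8 for the array design. The deposited processed signal is an intensity after background subtraction and spatial and multiplicative detrending by the software, per the file headers, and the deposited median signal and local background are raw intensities. The deposited series matrix holds log2 values that equalled the log2 of the processed signal (largest difference 5e-09) and are not scaled between arrays. Background flags were used as deposited, and saturation flags were not used. Symbols came from a RefSeq table on GRCm38.p6, used for names; 23374 of 41174 probes had one. Promoter windows came from RefSeq on the same build, cut to the 250 bases before the start.

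Control spots and outlier-flagged spots were left out, and spots of 1 probe were averaged. The log2 processed signal minus each array's 75th percentile was used. A probe was kept if well above background on at least 3 of 14 arrays (40276 probes, 32462 genes), and each gene was represented by its brightest kept probe, on the mean of all arrays. limma 3.58.1 in R 4.3.3 (lmFit, eBayes with a trend, two-sided) fitted 5 groups on all arrays, leaving 9 residual degrees of freedom, and called genes at an adjusted p under 0.05 and 2-fold. The fit was tested on simulated data. Intensities carry no depth, so the number of arrays limits the precision. Alternatives were array medians, quantile normalization, the series matrix, normexp on the median signal (offset 50), other filters and probe rules, slide and replicate blocks, array weights, no trend, arrays left out, and detection over negative control spots (mean plus 3 SD).

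Fold changes are named for called Hox genes and, per comparison, the 4 with the smallest p among those detected on every array of a compared group; values per array are given for up to 8 genes detected on every sorted array with the smallest F-test p, and Hoxa9 and Hoxa11 were added after their values were seen. From each list of partners the called genes, up to 4, or otherwise up to 2 with the smallest p are named, and genes named from the blocked fit were chosen after their values were seen. Some genes that the rules would name are not reported here by name, in the text or the figures. The members and lists were chosen with earlier results of these data known.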

Additional observations from a re-analysis of the deposited data

How the results depend on the processing

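Of 144 recomputed counts of called Hox genes, 141 stayed at 0, the replicate left out in turn included (range 0 to 0 in each comparison). With array weights, Hoxa2 was called in Kit-Gr1- against Kit+Gr1- (count 1; -2.35, adjusted p = 0.016, though it was not well above background on Kit-Gr1- replicates 2 and 3) and Hoxa2 and Hoxd3 in the F test (count 2). With the slide as a block and without the 4 compressed arrays, chosen after seeing the data, 1 gene, Hoxa11, was called in Gr1+ against Kit+Gr1-. Among the 448 recomputed differences of named Hox genes 3 changed sign: Hoxa9 in Gr1+ against Kit+Gr1- ranged from -0.045 to 1.53 and Hoxd10 from -0.11 to 1.04 when 1 array was left out, the lowest without Gr1+ replicate 3, and Hoxd12 in Sca1hi against Sca1lo was 0.10 with array weights. The cause was not tested. Over all genes, called counts rose from 22, 655 and 522 to 143, 2049 and 1850 without the compressed arrays.

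The detection count of Sca1hi, 21, was 37 with 1 array required instead of all, 8 with a threshold of 3 SD over the negative control spots, and 21 to 34 with 1 array left out. That of Kit-Gr1-, 23, was 36 with 1 array required. The other 24 detection counts stayed within 1.5 times the main count. With the replicate number as a block, 0 Hox genes were called in each comparison. Replicate numbers are not shown to pair the samples. Of 18 pairs of samples with the same number, 14 had deviations that correlated above 0.1, with a range from -0.23 to 0.87. Pairs with different numbers ranged from -0.85 to 0.66. The highest values were those of compressed arrays, Sca1hi replicate 3 with Gr1+ replicate 3 (0.87) and with Sca1lo replicate 3 (0.85). Replicate 1 of each sorted fraction lay on slide 1, so number, slide and compression cannot be fully told apart. Of 588 recomputed differences of other genes, 50 lost their call, 37 gained one and none changed sign. In the fit of all arrays only large differences could have been called for many Hox genes. These include genes detected on every sorted array, such as Hoxb4 and Hoxc9. The median SE of the Hox genes in Kit-Gr1- against Kit+Gr1- was 0.85 in that fit and 0.33 without the compressed arrays. The part of signal over background in this was not tested.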
